A study of Mus musculus with 2 samples.

Results

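The miR-148/miR-152 family was examined in hindbrain of mouse embryos through its 3 genes, Mir148a, Mir148b and Mir152. The members were taken by gene symbol, matching the Ensembl identifiers of the count tables to GENCODE M21, and they are 3 of 1973 microRNA (miRNA) genes counted. Small RNA of a labelled size range below 30 was sequenced from hindbrain of healthy B6NCrl embryos, with no genetic change named in the labels, at embryonic day 12.5. The series has 1 group of 2 libraries, replicate 1 from a pool of 120 embryos and replicate 2 from a pool of 88, with both sexes in each pool and no treatment. A pool averages over many embryos, so differences among embryos were not measured, and differences between the libraries may be technical as well as biological.

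MicroRNAs are small RNAs cut from hairpin precursors. They guide Argonaute proteins to messenger RNAs, mainly through the seed, which is bases 2 to 8 counted from the 5′ end, and lower the output of those messages. The miR-148/miR-152 family is conserved among vertebrates and is best known for targeting the DNA methyltransferase messages DNMT1 and DNMT3B in human cells, and for the control of cholesterol uptake through the LDL receptor message in liver. Its function in the embryonic hindbrain is less well described.

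The mature sequences are shown because the family is defined by them, and because they show why the reads of its genes can be told apart. They are the RefSeq sequences on GRCm38.p6, the assembly called mm10 in the tables, and all 3 members matched by symbol. In the arm named 3p, which gives the name of the family, capitals mark the seed.
miR-148a-3p: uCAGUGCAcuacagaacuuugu
miR-148b-3p: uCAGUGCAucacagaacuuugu
miR-152-3p: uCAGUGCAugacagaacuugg
The seed CAGUGCA was identical in all 3, and pairs with the letters UGCACUG in a target. Among 1738 mature mouse miRNAs of the RefSeq table, these 3 were the only ones with it at bases 2 to 8. Beyond the seed the members differed in the centre and at the end. From miR-148a-3p to miR-148b-3p the differences were C9U and U10C, with positions counted from 1 at the 5′ end and the base of the first-named miRNA given first, which leaves 20 of 22 bases identical. From miR-148a-3p to miR-152-3p they were C9U, U10G and U20G, with 18 of 21 compared bases identical. From miR-148b-3p to miR-152-3p they were C10G and U20G, with 19 of 21 identical.

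The other arm, 5p, is usually the less abundant product of these hairpins, and its seed divided the family.
miR-148a-5p: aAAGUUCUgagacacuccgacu
miR-148b-5p: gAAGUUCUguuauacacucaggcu
miR-152-5p: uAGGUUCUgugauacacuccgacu
miR-148a-5p and miR-148b-5p had the seed AAGUUCU, which no other mature sequence of the table held, while AGGUUCU was found in miR-152-5p only. The count tables give 1 value per hairpin and sum both arms, so the share of each arm was not measured here.

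The whole hairpins are printed with both mature arms in capitals, since they are the units that were counted. Mir148a (ENSMUSG00000065505.1) is on chromosome 6 from 51269812 to 51269910 on the minus strand, Mir148b (ENSMUSG00000065560.1) on chromosome 15 from 103285125 to 103285221 on the plus strand, and Mir152 (ENSMUSG00000065515.1) on chromosome 11 from 96850393 to 96850465 on the plus strand.
Mir148a: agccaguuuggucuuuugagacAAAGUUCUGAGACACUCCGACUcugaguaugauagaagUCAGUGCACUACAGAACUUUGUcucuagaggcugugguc
Mir148b: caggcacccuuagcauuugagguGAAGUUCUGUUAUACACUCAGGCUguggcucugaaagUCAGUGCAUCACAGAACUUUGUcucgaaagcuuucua
Mir152: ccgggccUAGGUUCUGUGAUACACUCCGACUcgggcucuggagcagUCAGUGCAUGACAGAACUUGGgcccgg
The longest run of identical bases between members was 15, between Mir148a and Mir148b, and Mir152 shared at most 12 bases in a row with a member. With hairpins outside the family the longest runs were 11, 12 and 11 bases for Mir148a, Mir148b and Mir152. Each of the 6 mature sequences occurred in the transcripts of 1 gene in GENCODE M21, its own. The tables hold only reads placed at a single position in the genome, and none of the 3 hairpins shares a run of 20 bases with another, in contrast to 87 of the 371 detected genes. Detected means a count of 10 or more in each of the 2 libraries.

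Mir148a was the highest member, Mir148b the next and Mir152 the lowest, in both libraries. Values are counts on the strand of the gene per 1000000 such counts over all miRNA genes (CPM), from 2764276 assigned counts in replicate 1 and 3946444 in replicate 2. The tables have no header, so the strand of a column was read from their layout, and no read lay on the strand opposite to a member in either library. Mir148a had 1232 counts or 446 CPM in replicate 1 and 1665 counts or 422 CPM in replicate 2, a mean of 434 ± 16.8 CPM (SD, n = 2). Mir148b had 591 counts or 214 CPM in replicate 1 and 1051 counts or 266 CPM in replicate 2, a mean of 240.1 ± 37.1 CPM (SD, n = 2). Mir152 had 250 counts or 90.4 CPM in replicate 1 and 413 counts or 105 CPM in replicate 2, a mean of 97.5 ± 10.05 CPM (SD, n = 2). The ranges of the members over the libraries did not overlap, so the order was the same in each, but an exact sign-flip test over 2 libraries cannot give a p below 0.5 and none was run. Levels of different miRNAs also depend on how well each ligates to the adapters, so the order between members is that of reads and not necessarily of molecules.

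**Figure D1:**
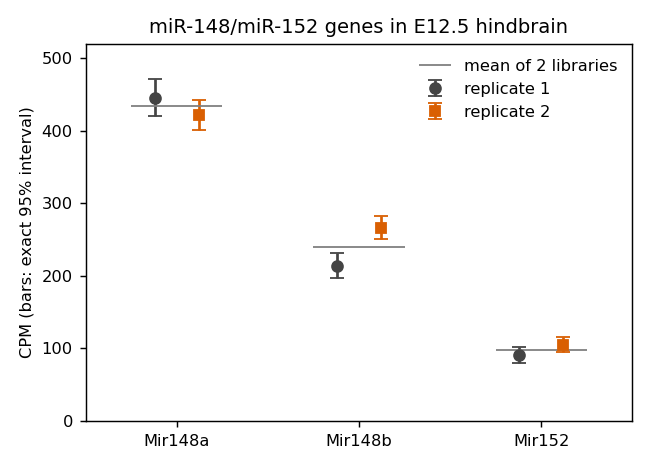
CPM of the 3 genes (y axis) in replicate 1 (circles) and replicate 2 (squares), with exact Clopper-Pearson 95% intervals as bars and the mean of the 2 libraries as a line. The intervals cover counting error only. Mir148a lies at 446 and 422 CPM, above Mir148b at 214 and 266 and Mir152 at 90.4 and 105.

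The exact Clopper-Pearson 95% intervals cover counting error only, and not the spread between pools or libraries. They treat reads as independent, and reads carried no molecular identifiers. The intervals were 421 to 471 CPM and 402 to 443 CPM for Mir148a in replicates 1 and 2. For Mir148b they were 197 to 232 CPM and 250.5 to 283 CPM, and these did not overlap between the libraries. For Mir152 they were 79.6 to 102 CPM and 94.8 to 115 CPM. The intervals of Mir148a and of Mir152 did overlap.

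The family was a small part of the hindbrain miRNA profile. Together the 3 genes had 2073 counts or 749.9 CPM in replicate 1 and 3129 counts or 793 CPM in replicate 2. Their share of the assigned counts was 0.0750% in replicate 1, with an exact interval of 0.0718% to 0.0783%, and 0.0793% in replicate 2, with an interval of 0.0765% to 0.0821%. By mean CPM, Mir148a had 142 detected genes above it, Mir148b had 170 and Mir152 had 226, of 371. Mir148a and Mir148b lay above the median of the detected genes, 183 CPM, and Mir152 below it. No member was among the 105 genes at 1000 CPM or more.

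**Figure D2:**
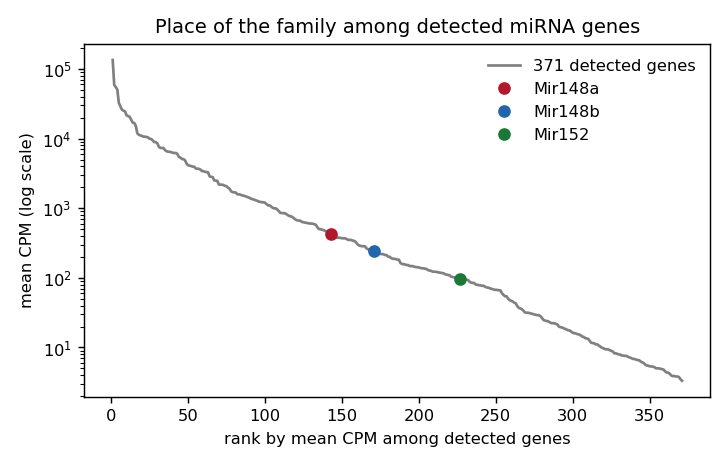
Mean CPM over the 2 libraries (y axis, log scale) against rank among the 371 detected miRNA genes (x axis), with the 3 members as coloured points. They lie in the middle of the curve, with Mir148a and Mir148b above the median of 183 CPM and Mir152, at 97.5 CPM, below it.

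The genes closest in level give the scale of these values. Next above Mir148a were Mir339 (438 and 490.1 CPM in replicates 1 and 2) and Mir138-1 (394 and 518 CPM), of a neuronal miRNA family that acts on dendritic spines in rat neurons. Next below were Mir330 (447 and 413 CPM) and Mir219a-1 (426 and 391 CPM), whose family drives oligodendrocyte differentiation. Around Mir148b were Mir7b (212 and 283 CPM), Mir138-2 (221 and 263 CPM), Mir448 (224 and 253 CPM) and Mir128-1 (283 and 190 CPM), a brain-enriched miRNA. Around Mir152 were Mir1264 (99.1 and 104 CPM), Mir5099 (101 and 102 CPM), Mir31 (111 and 80.1 CPM) and Mir338 (109 and 81.8 CPM), which acts in oligodendrocytes. The range over the libraries of each of these 12 genes overlapped that of its member, so their places beside it in the order are not resolved. Mir138-1, Mir138-2, Mir219a-1 and Mir128-1 each share a run of 20 bases with another hairpin, so their counts lack reads that match both copies.

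Within the family, the make-up shifted between the libraries by more than counting error. Mir148a gave 59.4% of the family counts in replicate 1, with an exact interval of 57.3% to 61.6%, and 53.2% in replicate 2, with an interval of 51.4% to 55.0%. Mir148b gave 28.5% in replicate 1 (26.6% to 30.5%) and 33.6% in replicate 2 (31.9% to 35.3%). Mir152 gave 12.1% in replicate 1 (10.7% to 13.5%) and 13.2% in replicate 2 (with an interval of 12.03% to 14.4%). Mir148a provided more than any other member in both libraries, and its share was higher in replicate 1.

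As a ratio of counts, Mir148a to Mir148b was 2.08 in replicate 1 (exact 95% interval 1.89 to 2.30) and 1.58 in replicate 2 (1.47 to 1.71). The 2 ratios differed by 1.32-fold, with an adjusted p of 4.74e-05 by a two-sided Fisher's exact test, Benjamini-Hochberg adjusted over the 3 pairs of members. The ratio of Mir148a to Mir152 was 4.93 in replicate 1 and 4.03 in replicate 2, a 1.22-fold difference with an adjusted p of 0.0348 by the same exact test, although the intervals, 4.30 to 5.67 and 3.62 to 4.50, overlapped. The ratio of Mir148b to Mir152 was 2.36 in replicate 1 and 2.54 in replicate 2, where the exact test gave an adjusted p of 0.445 and the intervals, 2.04 to 2.75 and 2.27 to 2.86, overlapped. For Mir148b and Mir152, the 2 members that lie inside host genes, a change of their ratio was not detectable at this depth. These tests treat reads as independent and compare these 2 libraries, not conditions. Among single genes, 51.7% of those tested passed between these libraries at an adjusted p under 0.05 by the exact binomial test described below. No such background was computed for pairs of genes, and the pair tests use the same counts as the tests of single genes.

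Across all genes, the counts of a gene in replicate 1 and replicate 2 were compared by an exact binomial test (two-sided), and p-values were adjusted by Benjamini-Hochberg over the 393 genes that averaged 10 counts or more. Mir148b was lower in replicate 1 than in replicate 2, with a log2 ratio of -0.32 and an adjusted p of 5.07e-05 by the exact test. Mir152 had a log2 ratio of -0.21 with an adjusted p of 0.120 by the exact test, and Mir148a had 0.08 with an adjusted p of 0.227. So 1 of 3 members passed at an adjusted p under 0.05 with no minimum fold, in the direction of lower in replicate 1, while 51.7% of all tested genes passed, 26.5% as higher and 25.2% as lower in replicate 1. With a minimum of 2-fold none of the 3 was called, against a background of 3.56%.

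The change of Mir148b was of a size common among the tested genes, although it was above the median of genes of its level. An absolute log2 ratio above its own was found in 39.4% of the 393 tested genes, and the corresponding shares were 55.7% for Mir152 and 84.2% for Mir148a. The median absolute log2 ratio over all tested genes was 0.24, as it was over the 73 tested genes within 2-fold of Mir148b in mean CPM, of which 48 passed with no minimum fold. The coefficient of variation of Mir148b between the libraries was 15.5%, below the 17.5% that edgeR's common dispersion gives for the spread beyond counting noise. It was 10.3% for Mir152 and 3.88% for Mir148a. The median log2 ratio was -0.21 over the 3 members and 0.04 over all tested genes.

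**Figure D3:**
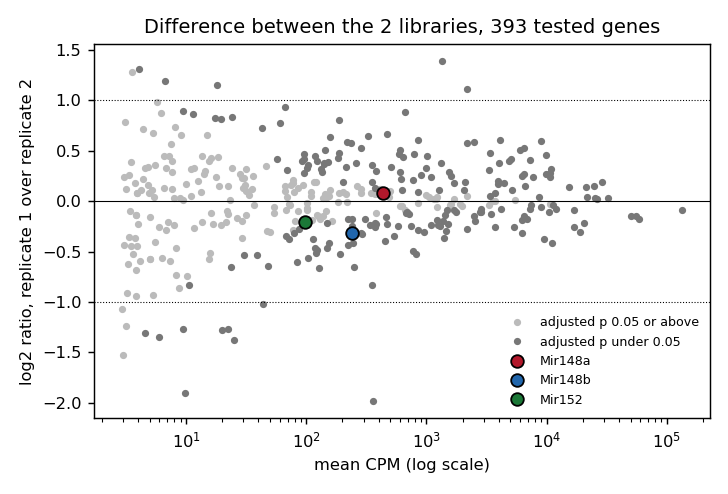
Log2 ratio of CPM in replicate 1 over replicate 2 (y axis) against mean CPM (x axis, log scale) for the 393 tested genes. Grey shades mark an adjusted p under or above 0.05, dotted lines mark 2-fold and coloured points are the 3 members, at 0.08 for Mir148a, -0.32 for Mir148b and -0.21 for Mir152, all inside the 2-fold lines.

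Markers of the tissue and of other cell types moved between the same libraries and are given for comparison. Of 9 neural and hindbrain markers, 8 were in the tables under their symbols and 5 were detected, and their sum was 45990 CPM in replicate 1, against 44166 CPM in replicate 2. Mir10a, which lies in the Hoxb cluster, Mir10b and the neuronal Mir137 led them, and Mir9-2 and the miR-124 genes Mir124a-1 and Mir124a-3 had at most 10 counts in a library. The copies of miR-9 and of miR-124 share long identical runs, so their low counts are no measure of those miRNAs. Skeletal muscle markers (2 of 2 detected) summed to 151.6 CPM in replicate 1, against 592 CPM in replicate 2, and epithelium markers (7 of 7 detected) to 9660 and 6470 CPM. Smooth muscle and pericyte markers (2 of 2) summed to 8348 and 10834 CPM, the endothelial marker Mir126a to 25987 and 23442 CPM, and mesenchyme markers (4 of 4) to 12931 and 10846 CPM. Mir214 held 93.9% and 89.6% of the mesenchyme sum, while Mir199a-1, Mir199a-2 and Mir199b had log2 ratios of -0.58, -0.49 and -0.53, replicate 1 over replicate 2. Erythroid markers (2 of 2) summed to 277 and 340 CPM, mostly from Mir451a, and leukocyte markers (2 of 3 in the tables, both detected) to 501 and 419.9 CPM. The liver marker Mir122 had 12.3 and 9.88 CPM and the endocrine marker Mir375 had 1687 and 1380 CPM. No listed marker in the tables was at 0 in both libraries. Like Mir148b, the skeletal muscle, smooth muscle and erythroid sums were lower in replicate 1, while the other marker sums were higher there. The mesenchyme genes were divided, with the 3 miR-199 genes lower in replicate 1 and Mir214 higher, at a log2 ratio of 0.32. The erythroid Mir144 had a log2 ratio of 0.01. The epithelium genes were also divided, with Mir205 at -0.20, Mir200a at 0.03 and Mir203 at 0.05. Mir141, Mir200b, Mir429 and Mir200c had log2 ratios of 0.81, 0.89, 1.12 and 1.39. Of the tested neural and hindbrain genes, Mir9-3 and Mir137 were lower in replicate 1, at -0.12 and -0.03. Mir10a, Mir10b and Mir124a-2 were higher there, at 0.03, 0.14 and 0.17. The part of these cell types in the difference of Mir148b was not tested. In bulk tissue such as this, fewer cells of a type and less RNA per cell cannot be told apart.

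The family differs from its relatives in level. In the miR-130/miR-301 family, the 3p miRNAs of Mir130a, Mir130b and Mir301 carry the same run of 7 bases, CAGUGCA, but at bases 1 to 7, so that their seed is shifted by 1 base. The sequences are shown with that run in capitals, to be set against the members above.
miR-130a-3p: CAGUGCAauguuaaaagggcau
miR-130b-3p: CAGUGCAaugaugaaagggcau
miR-301a-3p: CAGUGCAauaguauugucaaagc
Of the 1738 mature sequences searched, 7 held the run at bases 1 to 7. The 3p miRNA of Mir301b, the family's remaining gene, was not among the sequences searched. The 3 members together had 749.9 and 793 CPM in replicates 1 and 2, against 44693 and 44435 CPM for the 4 genes of miR-130/miR-301, which was 59.6 and 56.0 times the sum of the members. Mir130a alone had 32860 and 32101 CPM, Mir130b had 8743 and 9112 CPM and Mir301 had 2793 and 2942 CPM. Mir301b, at 296 and 280.3 CPM, lay between Mir148a and Mir148b by mean CPM. The further genes in the tables with the run at bases 1 to 7, Mir130c, Mir6341 and Mir6389, had no count in either library, where a limit of 3 counts permits a level of 1.09 CPM in replicate 1 and of 0.760 CPM in replicate 2.

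The miR-29 family, which also targets DNA methyltransferase messages (shown in human cells), was lower than the members by reads placed at a single position. The members summed to 749.9 and 793 CPM in replicates 1 and 2, against 182 and 179.9 CPM for the 4 genes of miR-29, which is 0.243 and 0.227 times the sum of the members. Mir152, at 90.4 and 105 CPM, stood beside Mir29c at 98.4 and 105 CPM and Mir29a at 81.8 and 72.2 CPM. Mir29b-1 and Mir29b-2 had at most 6 counts in a library. In this family 3 of 4 genes share a run of 20 bases with another hairpin, so its sum lacks reads that match both, and the order of the families by molecules was not measured. None of its 2 tested genes passed the test between the libraries at any fold, against 51.7% of all tested genes. Their median log2 ratio was 0.05, and 2 genes are too few to set against that share.

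The genes of the miR-103/miR-107 and miR-26 families lie in introns of paralogous host genes, the Pank and Ctdsp families, as Mir148b and Mir152 lie in introns of related genes, while Mir148a has no annotated host. In the miR-148/miR-152 family the leading gene, Mir148a, held 59.4% and 53.2% of the counts in replicates 1 and 2. The 3 genes of miR-103/miR-107 summed to 1625 and 1670.1 CPM, with 95.2% and 95.3% of it from Mir107. The 3 genes of miR-26 summed to 22018 and 21383 CPM, with 99.8% from Mir26b in each library. Mir103-1, Mir103-2, Mir107, Mir26a-1 and Mir26a-2 each share a run of 20 bases with another hairpin. Reads that match both hairpins are therefore missing from their counts, and the shares of the leading genes are of the reads placed at a single position. The 3 members have distinct mature sequences and share no such run. Between the libraries, 1 of 3 tested genes of miR-26 passed at any fold (Mir26b, log2 ratio 0.04) and none of 3 in miR-103/miR-107. In miR-130/miR-301, 3 of 4 passed, while over all tested genes 51.7% did. The median log2 ratios of these 3 families were 0.04, -0.04 and -0.01, in that order. Passing depends on the counts as well as on the ratio. Mir26b had 60759 and 84235 counts, whereas Mir103-1, at a log2 ratio of 0.68, did not pass with 18 and 16 counts. The numbers passing are therefore no comparison of the families.

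**Figure D4:**
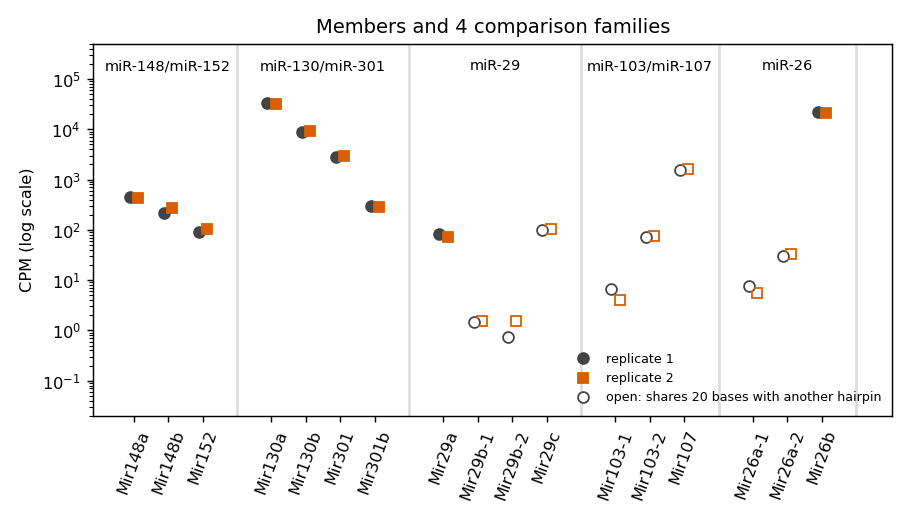
CPM (y axis, log scale) of each gene of the miR-148/miR-152 family and of 4 comparison families, in replicate 1 (circles) and replicate 2 (squares). Open symbols mark genes that share 20 identical bases with another hairpin, and the 3 members, at 90.4 to 446 CPM, lie below Mir130a and Mir26b and are all drawn filled.

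Mir148b and Mir152 occupy the same place in a pair of related genes. Mir148b lies in intron 1 of Copz1 and Mir152 in intron 1 of Copz2, on the strand of the host in both cases. Copz1 and Copz2 encode the alternative zeta subunits of the COPI coat, which covers vesicles that return from the Golgi to the endoplasmic reticulum. The intron is 16159 bases long in Copz1 and 676 bases in Copz2. Mir148b starts 12.2 kb after the start of the coding transcript Copz1-201, and Mir152 starts 0.517 kb after that of Copz2-201. Every annotated transcript of a host that spans the hairpin places it in that first intron, and in none does it overlap an exon. Mir148a has no annotated host gene in GENCODE M21. The nearest gene, the noncoding Gm32479, is 13.6 kb away and the nearest coding gene, Nfe2l3, is 163 kb away. No other miRNA gene lies within 50 kb of a member, so none belongs to a miRNA cluster by that distance. Messenger RNA of the hosts was not measured.

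Only Mir148b and Mir152 have related host genes, and no coding gene whose symbol is Copz followed by a digit is annotated on the chromosome of Mir148a. Beyond the hosts, the 3 loci share some neighbouring gene families. These gene families were chosen after the annotation around the members was seen, and they describe the genome and not the libraries. Each locus has a gene of the Nfe2 family of leucine zipper transcription factors, Nfe2l3 at 163 kb from Mir148a, Nfe2 at 26.7 kb from Mir148b and Nfe2l1 at 20.4 kb from Mir152. Each has a gene of the heterochromatin protein 1 group, Cbx3 at 200.5 kb, Cbx5 at 45.3 kb and Cbx1 at 41.8 kb. Mir148a and Mir148b also have a gene for a splicing regulator of the hnRNP A group nearby, Hnrnpa2b1 at 191 kb and Hnrnpa1 at 38.4 kb, whereas no coding gene whose symbol is Hnrnpa followed by a digit is annotated on chromosome 11. Each locus is also on the chromosome of a Hox cluster. The miRNAs inside these clusters had levels that did not overlap with those of the member on the same chromosome. Mir148a, at 446 and 422 CPM, shares its chromosome with Mir196b at 24.96 and 36.2 CPM. Mir148b, at 214 and 266 CPM, shares it with Mir615 at 2237 and 1960.3 CPM and Mir196a-2 at 1.09 and 1.52 CPM. Mir152, at 90.4 and 105 CPM, shares it with Mir10a at 26347 and 25880 CPM and Mir196a-1, which had no count in either library. Mir196a-1 and Mir196a-2 share a run of 20 bases with another hairpin.

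**Figure D5:**
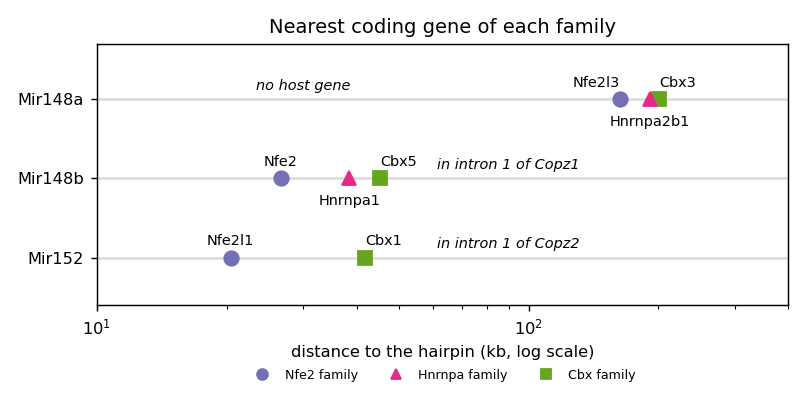
Distance from each hairpin to the nearest coding gene of 3 gene families on the same chromosome (x axis, kb, log scale), with 1 row per member and a label for the host gene. The Nfe2 gene is nearest and the Cbx gene farthest in every row, from 20.4 kb for Nfe2l1 to 200.5 kb for Cbx3.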

How the data were processed

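Small RNA libraries of 2 pools of embryonic day 12.5 hindbrain were used as deposited. The authors' tables hold raw read counts per miRNA gene, which the text deposited beside them describes as derived from mm10 alignments and GENCODE M4. Sources used here name no aligner, trimming step or version. Of the 3 count columns (both strands, gene strand, opposite strand, as read from the layout) the gene strand was used. Reads assigned to no gene stayed out of the totals behind CPM and shares, except in the alternative that takes all reads as the denominator. They include 32.7% of 5947846 reads in replicate 1 and 33.4% of 8656439 reads in replicate 2 that matched several positions. Assigned counts were 46.5% and 45.6% of reads.

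Symbols came from GENCODE M21 on GRCm38, the assembly of mm10, for 1894 of 1973 genes, and sequences from RefSeq. CPM, exact Clopper-Pearson 95% intervals, exact binomial and Fisher's exact tests were computed with Python 3.11.15 and SciPy 1.17.1. In ratios of CPM, 0.5 was added to each count. edgeR 4.0.16 gave TMM factors and the common dispersion over all genes that averaged 10 counts or more, with an intercept only, and DESeq2 1.42.0 gave alternative size factors and dispersions. With 1 group, no contrast between conditions exists.

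The members, the comparison families, the markers and the tests were chosen with earlier results of these data known. Named genes are the members, the 2 detected genes next above and next below each in mean CPM, the comparison families and the genes around the loci. The gene families around the loci, the Hox cluster miRNAs and Mir130c, Mir6341 and Mir6389 were added after the annotation or the sequences were seen. The labels call the libraries biological replicates from separate pools, but give both the same donor label.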

Additional observations from a re-analysis of the deposited data

How the results depend on the processing

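Counting both strands together could not change the order or the make-up of the family, since no member had a read on the opposite strand. The denominator moved the levels. With all reads as the denominator, the mean levels per 1000000 were 199.7 for Mir148a, 110.4 for Mir148b and 44.9 for Mir152, and the family share was 0.0355%. Without Mir99a in the counts they were 501, 278 and 113 CPM and 0.0892%. Without genes that share a run of 20 bases, Mir148a had 472 CPM and the share was 0.0838%. Each library alone gave 422 to 446 CPM for Mir148a, 214 to 266 for Mir148b and 90.4 to 105 for Mir152. The signs of the members' log2 ratios and the single call of Mir148b held with TMM, DESeq2 size factors, both strands and other count minimums. The adjusted exact binomial p ran from 5.75e-06 to 9.48e-05 for Mir148b, 0.0699 to 0.207 for Mir152 and 0.183 to 0.535 for Mir148a. A pseudocount of 1 kept the signs, but it does not enter the exact test and so could not change the call. With a mean of at least 100 counts, 4 of 275 tested genes were called at 2-fold, in place of 14 of 393. No paired analysis was possible because there is 1 group only. Mir152 had the fewest counts of the 3, 250 and 413, and the widest intervals relative to its level. Separate 5p and 3p arms, and reads that match several positions, were not analysed here.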
